A study of Mus musculus with 22 samples.

Results

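Lin28a, Lin28b, Nr6a1, Prtg and Gdf11 are genes known from the timing of trunk and tail formation, and their RNA was followed day by day in mouse gastruloids, aggregates of embryonic stem cells that are grown in culture and develop tissues of the embryonic trunk and tail. The 5 members were chosen by gene symbol from the 32285 genes of the deposited count matrices, and each symbol matched 1 row. The list was proposed with earlier results of these data known, and which measured values it was selected on is not recorded, so the tests of day below describe these genes and are not independent support for a timing pattern. The gastruloids came from wild type E14Tg2A cells, a mouse embryonic stem cell line, seeded at 300 cells per well and given 3 µM CHIR99021, a GSK3 inhibitor that activates Wnt signalling, after 48 h of aggregation. The same line and treatment were shared by every group, so no untreated control enters. Single cells were captured on 22 lanes of the 10x Chromium 3′ system per the labels. Of these, 18 are described here, and the 4 lanes of MULTI-seq 2 for days 3 and 3.5 were not analysed here. In the MULTI-seq experiments a lipid-anchored DNA barcode marked the cells of each gastruloid, and per the labels' protocols gastruloids were picked as representative, which limits how far they stand for all gastruloids of a day.

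The groups used here, all wild type and all given the same pulse, were 24 gastruloids of day 3, 16 of day 3.5, 16 of day 4, 16 of day 4.5 and 16 of day 5 in MULTI-seq 3, 11 of day 4 and 12 of day 4.5 in pool B of MULTI-seq 2, and 24 of day 5 in MULTI-seq 1. The 10X experiment gave 1 lane each of day 3 and day 4 with no calls of single gastruloids. Lanes held 64703013 to 307883815 unique molecular identifiers (UMIs, each standing for 1 captured RNA molecule), and the 135 gastruloids used held 1293296 to 57333371 UMIs each. The median share of mitochondrial UMIs was near 2% in the lanes of MULTI-seq 3 and near 5% in the others. Days 3.5 and 4 of MULTI-seq 3 shared a pool, as did days 4.5 and 5, and days 4 and 4.5 of MULTI-seq 2, and only these pairs were tested. Across pools, day and pool cannot be told apart. Nothing in the labels says that gastruloids of a day came from separate stem cell cultures, so p-values measure the spread between gastruloids.

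LIN28A and LIN28B are RNA-binding proteins that block the maturation of let-7 microRNAs, and let-7 in turn represses both Lin28 transcripts, a loop known for keeping early cell states from advancing. Nr6a1 encodes an orphan nuclear receptor (germ cell nuclear factor) that represses pluripotency genes and is known to set the number of trunk vertebrae. Prtg encodes Protogenin, a transmembrane protein of the DCC family expressed in the early posterior embryo. Gdf11 encodes a secreted TGF-β family ligand that signals through activin receptors and SMAD2 and SMAD3, and is known for starting the switch from trunk to tail in the axial progenitors.

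On the mouse genome build GRCm38 (the build mm10 of the submitters' notes), positions were read from the GENCODE M21 annotation, and all 5 members are protein-coding genes. Lin28a (ENSMUSG00000050966) lies at chr4:134003330-134018841 on the minus strand. Lin28b (ENSMUSG00000063804) lies at chr10:45376620-45486395, minus strand, and Gdf11 (ENSMUSG00000025352) on the same chromosome at chr10:128882295-128891718, minus strand. Nr6a1 (ENSMUSG00000063972) spans chr2:38723370-38927688 on the minus strand, and Prtg (ENSMUSG00000036030) chr9:72806874-72917291 on the plus strand. The overlapping genes on the opposite strand in the matrices are Nr6a1os (in Nr6a1) and Gm13061 (in Lin28a). Their pooled levels in MULTI-seq 3 were at most 0.314 CPM (UMIs of a gene scaled to the total UMIs of the cells) for Nr6a1os and 0.0494 for Gm13061.

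The let-7 microRNAs themselves were not measured by this assay, and their sequences are shown because the members' 3′ untranslated regions (UTRs) hold letters that pair with them. All 9 mature 5p sequences of the let-7 and miR-98 family matched in RefSeq (GRCm38.p6), from 11 genes, share the seed GAGGUAG, bases 2 to 8, printed here in capitals. Shown as examples are let-7a (of Mirlet7a-1, chr13:48538239-48538260, minus strand), let-7c (of Mirlet7c-1, chr16:77599672-77599693, plus strand, inside the long noncoding gene Mir99ahg) and let-7g (chr9:106178846-106178867, plus strand, inside Wdr82).
mmu-let-7a-5p: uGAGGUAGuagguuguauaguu
mmu-let-7c-5p: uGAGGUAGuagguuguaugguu
mmu-let-7g-5p: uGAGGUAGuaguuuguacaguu

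The DNA letters that pair with this seed, CTACCTC, were searched on the transcript strand in 1 transcript per gene, the protein-coding one with the longest 3′ UTR. Nr6a1 held 8 matches in a 3′ UTR of 4457 bases, Lin28b 4 in 4445 bases, Lin28a 2 in 2775 bases and Prtg 2 in 4989 bases. Gdf11 held 0 in 2811 bases. Of 20869 genes with a 3′ UTR, 9.07% held at least 1 match and 0.153% at least 3. Among the 1343 genes whose 3′ UTR is 0.8 to 1.25 times as long as that of Nr6a1, 24.3% held at least 1 match and 0.67% at least 3. Among genes of like length to the other members, at least 1 match stood in 14.8% of 2616 for Lin28a, 24.3% of 1356 for Lin28b, 25.4% of 1065 for Prtg and 15.2% of 2603 for Gdf11, and 0.664% held at least 3 for Lin28b. The 7 matches that are followed by an A, the longest form of a seed match, are printed with the match in capitals and with their position on GRCm38. A match is a description of letters and does not show that let-7 acts there.
Lin28a, chr4:134005188-134005212, minus strand: tgcacagcctgttgaaCTACCTCat
Lin28a, chr4:134004550-134004574, minus strand: tgagatcgccacaaacCTACCTCac
Lin28b, chr10:45381021-45381045, minus strand: cacccgggcgggaagtCTACCTCat
Nr6a1, chr2:38727448-38727472, minus strand: atgttgacaaagacaaCTACCTCaa
Nr6a1, chr2:38726591-38726615, minus strand: ggaaaggggcattaaaCTACCTCat
Nr6a1, chr2:38723684-38723708, minus strand: caagtgcatcatgaacCTACCTCag
Prtg, chr9:72912557-72912581, plus strand: gccctctgctgaatagCTACCTCag

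Levels are given as CPM, the UMIs of a gene scaled to a fixed total of all UMIs in the summed cells, with mean ± SD over gastruloids. In whole gastruloids of MULTI-seq 3, Lin28a stood at 186 ± 20.1 CPM (n = 24) on day 3, 243 ± 58.2 (n = 16) on day 3.5, 139 ± 41.3 (n = 16) on day 4, 123 ± 23.5 (n = 16) on day 4.5 and 97.3 ± 12.6 (n = 16) on day 5. Its highest mean was thus on day 3.5, and the ranges of neighbouring days overlapped. Lin28b went from 40.1 ± 4.73 CPM on day 3 to 61.0 ± 16.3 on day 3.5, 45.8 ± 13.6 on day 4, 47.1 ± 10.6 on day 4.5 and 39.0 ± 6.25 on day 5, with the same day highest. Nr6a1 measured 46.1 ± 4.71 CPM on day 3, 158 ± 32.1 on day 3.5, 124.5 ± 30.3 on day 4, 66.5 ± 14.5 on day 4.5 and 48.6 ± 6.70 on day 5. For Nr6a1 the gastruloids of day 3 (37.1 to 55.5 CPM) and day 3.5 (90.9 to 206) did not overlap. Prtg stood at 143 ± 13.8 CPM on day 3, 360 ± 72.4 on day 3.5, 434 ± 68.9 on day 4, 279 ± 35.3 on day 4.5 and 214.5 ± 36.1 on day 5, and its highest mean came on day 4. Its gastruloids of day 3 (123 to 180 CPM) all lay below those of day 3.5 (265 to 512). Days 3 and 3.5 sit in separate pools, and the share of all genes without overlap between them is not given here. Gdf11 was the member with its highest mean on the last day, at 6.91 ± 2.00 CPM on day 3, 16.5 ± 5.33 on day 3.5, 13.6 ± 4.24 on day 4, 18.2 ± 2.48 on day 4.5 and 19.8 ± 3.4 on day 5. Days 3, 3.5 to 4, and 4.5 to 5 sit in 3 pools, so the steps between these blocks have no test.

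**Figure D1:**
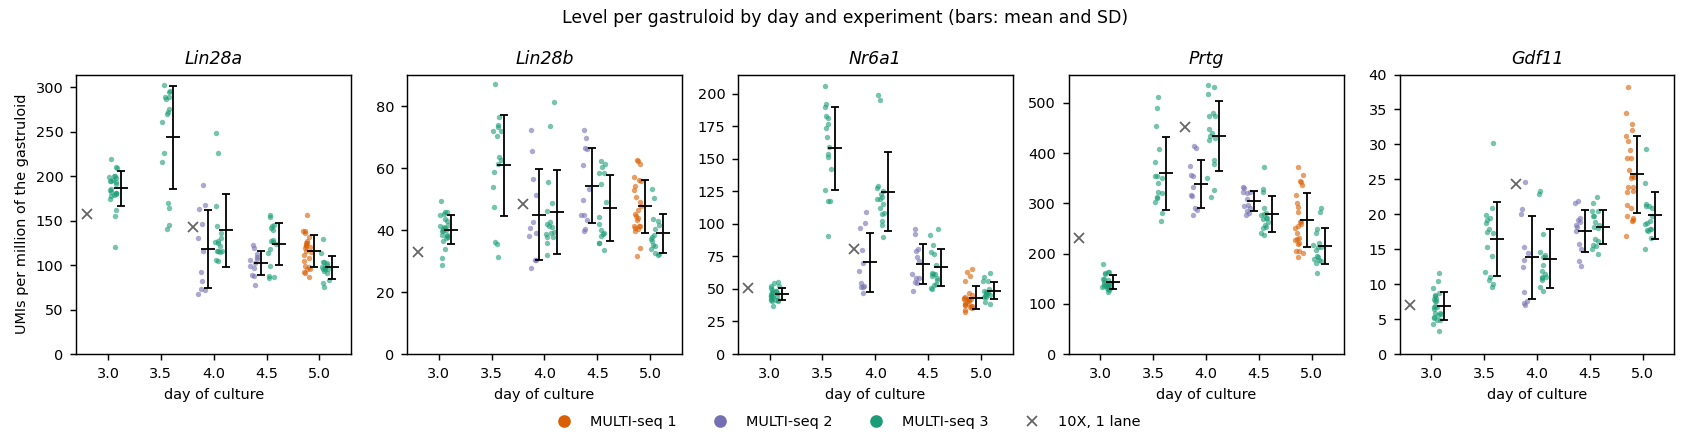
Each point is 1 gastruloid, plotted by day of culture (x axis) and CPM of its summed cells (y axis, linear from 0), coloured by experiment, with black marks for the mean and SD and grey crosses for the 2 lanes of the 10X experiment. In MULTI-seq 3 the mean of Nr6a1 was 46.1 on day 3, 158 on day 3.5 and 48.6 on day 5, while the mean of Gdf11 was highest on day 5. These days come from 3 pools, so day and pool cannot be told apart across them.

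Other experiments gave values at the same days, which are set side by side without a test because experiment and culture cannot be told apart. On day 4, Nr6a1 stood at 70.6 ± 22.6 CPM (n = 11) in MULTI-seq 2 beside 124.5 ± 30.3 (n = 16) in MULTI-seq 3, and at 80.7 in the single 10X lane, below the lowest gastruloid of MULTI-seq 3 (90.0) and within the range of MULTI-seq 2 (46.6 to 109). Prtg was 339 ± 47.7 CPM in MULTI-seq 2 and 434 ± 68.9 in MULTI-seq 3 on that day, and 451 in the 10X lane. Gdf11 had 13.8 ± 6.0 and 13.6 ± 4.24 CPM in these experiments, and 24.3 in the 10X lane, above the highest gastruloid of MULTI-seq 3 (23.3) and below that of MULTI-seq 2 (24.6). Lin28a had 118 ± 43.8, 139 ± 41.3 and 142 CPM in the same order, and Lin28b 45.0 ± 14.7, 45.8 ± 13.6 and 48.4. On day 4.5 the means of MULTI-seq 2 (n = 12) and MULTI-seq 3 (n = 16) were 69.1 ± 15.5 and 66.5 ± 14.5 CPM for Nr6a1, and 17.7 ± 3.00 and 18.2 ± 2.48 for Gdf11. They were 102.2 ± 13.3 and 123.4 ± 23.5 CPM for Lin28a, 54.4 ± 12.2 and 47.1 ± 10.6 for Lin28b, and 305 ± 20.1 and 279 ± 35.3 for Prtg, and the ranges overlapped for each of the 5 members. On day 5, MULTI-seq 1 gave 115 ± 17.8 CPM for Lin28a, 47.7 ± 8.66 for Lin28b, 43.4 ± 8.95 for Nr6a1, 267 ± 54.3 for Prtg and 25.7 ± 5.53 for Gdf11 (n = 24), and the ranges overlapped those of MULTI-seq 3. On day 3, the 10X lane held Prtg at 231 CPM, above the highest of the 24 gastruloids of MULTI-seq 3 (180), and the other 4 members within their ranges.

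Between cluster names, the 25 cell type names of the authors' deposited table, the members differed widely, and these levels are a description because the names were made from expression. Each name tested below was checked against its markers (such as T, Sox2, Nkx1-2 and Cdx2 for neuromesodermal progenitors, or Tbx6 and Msgn1 for presomitic mesoderm). For the 11 names tested within names, 3 to 5 of the 4 or 5 markers of each were higher in the name than in all cells. Early Spinal Cord had 3 of 5, with Pax6 at 2.57 CPM against 4.90 in all cells and Nkx6-1 at 1.03 against 2.58, and Late Anterior PSM (presomitic mesoderm) held Msgn1 at 0.0284 CPM. Mature Somites had 3 of 4, with Aldh1a2 at 125 CPM against 188 in all cells. Caudal Epiblast had 3 of 4, with Sox2 at 45.2 CPM against 51.9, and Primitive Streak 3 of 4, with Eomes at 16.6 against 17.2.

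Lin28a had its highest means in caudal and early neural names of days 3 and 3.5. On day 3.5 it stood at 343 ± 41.0 CPM in Caudal Neurectoderm (n = 13), 305 ± 36.3 in Caudal Epiblast (n = 15) and 298 ± 29.0 in Early Neurectoderm (n = 9), neighbours whose SDs overlap, and at 143 ± 16.2 in Early Posterior PSM (n = 13). On day 5 its order ran from 194 ± 23.6 CPM in NMPs (neuromesodermal progenitors, n = 16) and 194 ± 32.5 in Early Spinal Cord (n = 16) to 122 ± 15.8 in Mature Endoderm (n = 9), 104 ± 10.6 in Late Posterior PSM, 91.9 ± 12.4 in Late Spinal Cord and 91.0 ± 16.4 in Head Mesoderm (n = 7). Below these stood Late Anterior PSM at 37.3 ± 10.9 CPM, Mature Somites at 35.5 ± 5.78, Endothelium at 21.5 ± 7.58 (n = 6) and Somites at 20.3 ± 7.18 (n = 12). Mature Endoderm thus lay above Late Spinal Cord, a neural name. The somite names of day 5 (7.46 to 46.6 CPM) lay wholly below NMPs (159 to 240 CPM), and the share of all genes without such overlap is not given. Lin28b had its highest mean in NMPs of day 4, 108 ± 20.1 CPM (n = 14), and on day 5 in Late Spinal Cord, 54.5 ± 6.88 (n = 8). Among the names of day 5 with at least 5 gastruloids, its lowest mean was 19.9 ± 7.16 CPM in Late Anterior PSM (n = 15).

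Nr6a1 was highest in Early Spinal Cord of day 3.5, 239 ± 61.7 CPM (n = 10), and Caudal Neurectoderm of the same day, 222 ± 40.9 (n = 13), which do not differ beyond their SDs. In Early Spinal Cord its mean was 177 ± 46.0 CPM on day 4, 64.6 ± 15.3 on day 4.5 and 36.5 ± 8.07 on day 5. Days 4 and 4.5 sit in separate pools here, so day and pool cannot be told apart between them, and that step has no test. On day 5 the order of names was different, with Head Mesoderm (73.5 ± 8.60 CPM, n = 7), Somites (64.4 ± 12.9) and Late Spinal Cord (63.7 ± 8.73) above NMPs (38.5 ± 5.17) and Early Spinal Cord. Prtg was highest in the mesodermal names of day 4, with 631 ± 71.5 CPM in Early Posterior PSM (n = 16), 561 ± 59.8 in Cardiopharyngeal Mesoderm (n = 8) and 554 ± 70.3 in Early Anterior PSM (n = 14). In NMPs of day 4 it stood at 266 ± 33.5 CPM, and in Endothelium of day 5 at 74.1 ± 24.9 (n = 6), its lowest mean.

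Gdf11 had its highest means in NMPs, 35.5 ± 12.1 CPM on day 4, 35.8 ± 7.99 on day 4.5 and 48.2 ± 8.49 on day 5, and in Early Spinal Cord, 33.8 ± 7.38 on day 5. Late Posterior PSM of day 5 had 25.6 ± 7.25 CPM, and Mature Somites (11.3 ± 2.04) and Somites (7.62 ± 3.57) were lower. In MULTI-seq 1 on day 5 the same names stood at 48.0 ± 11.6 CPM (NMPs, n = 22), 37.0 ± 10.3 (Early Spinal Cord, n = 23), 13.5 ± 5.89 (Mature Somites, n = 23) and 11.2 ± 7.11 (Somites, n = 13). In the single 10X lane of day 4, Early Spinal Cord (39.9 CPM) stood above NMPs (36.9), Late Posterior PSM (33.5) and Caudal Epiblast (33.1). Lanes 1 and 2 of pool C of MULTI-seq 2, days 4 and 4.5 together, had NMPs at 31.9 and 28.3 CPM and Early Spinal Cord at 22.4 and 20.8.

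**Figure D2:**
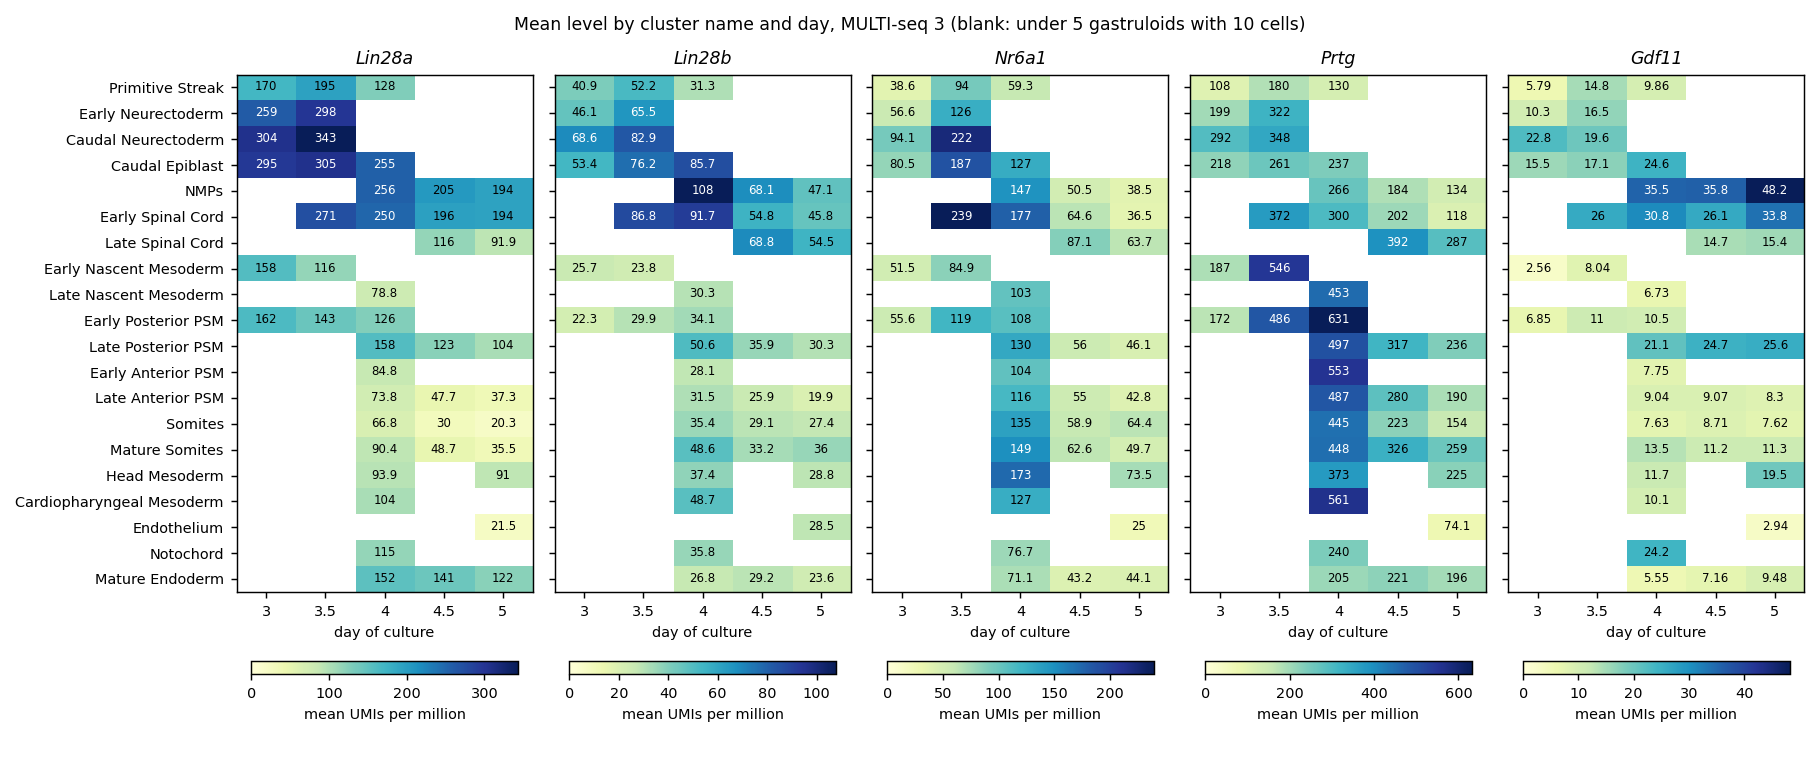
Mean CPM (colour and printed number, scale from 0 within each panel) by cluster name (rows) and day of culture (columns) in MULTI-seq 3, with fields left blank where fewer than 5 gastruloids had 10 cells of the name. Lin28a is highest in Caudal Neurectoderm of day 3.5 (343), Gdf11 in NMPs of day 5 (48.2), Prtg in mesodermal rows of day 4 (631 in Early Posterior PSM), and Nr6a1 in neural rows of day 3.5 (239 in Early Spinal Cord).

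The first tested step was day 4 against day 3.5 in MULTI-seq 3 (16 gastruloids each). In whole gastruloids, Lin28a, Lin28b and Nr6a1 were lower and Prtg was higher on day 4, so 4 of 5 members passed edgeR's quasi-likelihood test at a Benjamini-Hochberg adjusted p of 0.05. This is a step at which 60.3% of the 13262 genes tested passed, 31.1% higher and 29.2% lower, so a call alone is common here. Lin28a ran from 140 to 302 CPM (median 271) on day 3.5 and from 105 to 248 (median 125) on day 4. All 16 gastruloids of day 4 were below the day 3.5 median although the ranges overlapped, and the log2 fold change was -0.83 (SE 0.13; edgeR adjusted p = 2.2e-06). Lin28b fell from a median of 63.1 CPM (31.3 to 87.3) to 41.1 (32.1 to 81.5), with a log2 fold change of -0.43 (SE 0.13; edgeR adjusted p = 0.00587). Nr6a1 fell from a median of 163 CPM (90.9 to 206) to 119 (90.0 to 199), a log2 fold change of -0.37 (SE 0.10; edgeR adjusted p = 0.00301). Prtg rose from a median of 345 CPM (265 to 512) to 437 (312 to 536), 0.24 on the log2 scale (SE 0.10; edgeR adjusted p = 0.0295). Gdf11 had a log2 fold change of -0.28 (95% interval -0.57 to 0.01; edgeR adjusted p = 0.0878) and did not pass.

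The makeup of the gastruloids changed over the same step. Neural names made up 37.3% ± 28.3 of a gastruloid's cells on day 3.5 and 10.2% ± 24.0 on day 4, and in sums over whole gastruloids fewer cells of a type and less RNA per cell cannot be told apart. The share was uneven on day 4, where the highest gastruloids had 73.7% and 69.2% and the next had 3.63%. A fit with this share thus leans on few gastruloids of day 4. With this share as a covariate Lin28a kept a log2 fold change of -0.53 and its call. The values of Lin28b (-0.10), Nr6a1 (-0.13) and Prtg (0.11) no longer passed, at edgeR adjusted p = 0.283, 0.108 and 0.37, and that of Gdf11 turned to 0.09. Prtg also missed the threshold with a minimum of 100 cells per gastruloid (0.20; edgeR adjusted p = 0.0724). Over all 9 alternatives the adjusted p of Lin28b spanned 0.0023 to 0.283, that of Nr6a1 0.000883 to 0.108 and that of Prtg 0.00984 to 0.37.

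Within Caudal Epiblast, the progenitor layer at the rear of the gastrulating embryo (15 gastruloids of each day with at least 10 such cells), 4 of 5 members passed, 2 higher and 2 lower, beside 21% of 8735 genes. Lin28a fell from a median of 304 CPM (218 to 358) to 250 (213 to 297), a log2 fold change of -0.23 (SE 0.05; edgeR adjusted p = 0.000193), with all 15 later gastruloids below the earlier median. Gdf11 rose from a median of 15.9 CPM (8.56 to 24.7) to 22.3 (17.3 to 36.7), 0.46 on the log2 scale (SE 0.12; edgeR adjusted p = 0.00305), and all 15 later gastruloids lay above the earlier median. Nr6a1 fell from a median of 195 CPM (85.8 to 231) to 118 (72.4 to 213), a log2 fold change of -0.49 (SE 0.13; edgeR adjusted p = 0.0077). Lin28b rose from 74.6 CPM (55.5 to 94.5) to 87.7 (64.1 to 103), 0.19 on the log2 scale (SE 0.06; edgeR adjusted p = 0.0178). The 2 Lin28 genes thus moved in opposite directions within this name. Prtg had -0.11 (95% interval -0.21 to -0.02; edgeR adjusted p = 0.0806). The call of Lin28b was lost without lane A (0.16) and without lane D (0.17), and those of Lin28b, Nr6a1 and Gdf11 with a minimum of 30 cells (0.16, -0.41 and 0.41). Over the 8 alternatives the adjusted p spanned 0.0169 to 0.113 for Lin28b, 0.00172 to 0.117 for Nr6a1 and 0.00218 to 0.0511 for Gdf11.

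Early Posterior PSM, the first presomitic mesoderm (13 and 16 gastruloids), had 3 of 5 members past the test beside 38.2% of 9605 genes. Lin28a fell from a median of 146 CPM (118 to 165) to 126 (106 to 140), with a log2 fold change of -0.21 (SE 0.05; edgeR adjusted p = 0.000445). Nr6a1 had medians of 117 (83.5 to 189) and 108 (90.1 to 132) CPM and a log2 fold change of -0.21 (SE 0.07; edgeR adjusted p = 0.0182). Prtg rose from a mean of 486 CPM (254 to 704) to 631 (516 to 766), 0.28 on the log2 scale (SE 0.10; edgeR adjusted p = 0.0295), with all 16 later gastruloids above the earlier median. Of these, the Prtg call was the least stable: it was lost without lane A (0.24), lane C (0.20) or lane D (0.27), with no filter on low counts (0.28) and with a minimum of 30 cells (0.21), among 8 alternatives with adjusted p from 0.00975 to 0.153. Scaling by library size alone, with no TMM factors, ended the call of Nr6a1 (-0.15) and gave one to Lin28b (0.22), whose main value was 0.16 (95% interval 0.03 to 0.30; edgeR adjusted p = 0.054). Over the alternatives the adjusted p spanned 0.0116 to 0.0752 for Nr6a1 and 0.00968 to 0.26 for Lin28b. Gdf11 had 0.05 (95% interval -0.18 to 0.28), and ran from -0.02 to 0.13 without 1 lane.

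In Primitive Streak, the site where mesoderm and endoderm leave the epiblast (16 and 5 gastruloids), 3 of 5 members passed beside 5.19% of 8262 genes, and all 5 had values below 0. The 5 gastruloids of day 4 held Lin28a at 112 to 166 CPM (median 122) against 151 to 252 (median 187) on day 3.5, a log2 fold change of -0.61 (SE 0.09; edgeR adjusted p = 2.74e-05). Lin28b fell from a median of 52.2 CPM (36.3 to 69.4) to 30.1 (21.7 to 38.3), -0.73 on the log2 scale (SE 0.16; edgeR adjusted p = 0.00316). Nr6a1 fell from a median of 92.4 CPM (49.4 to 139) to 47.3 (43.5 to 104), -0.75 on the log2 scale (SE 0.19; edgeR adjusted p = 0.0161). Single lanes decided several calls. Lin28b was lost without lane A (-0.49) or lane C (-0.70), Nr6a1 without lane B (-0.53), and Prtg, at -0.55 (edgeR adjusted p = 0.0702), passed without lane A (-0.83), without lane C (-0.72) and with DESeq2 (-0.50). The adjusted p over 6 alternatives spanned 0.000288 to 0.226, 0.00141 to 0.239 and 0.00604 to 0.411 for these genes. Gdf11 had -0.55 (95% interval -1.42 to 0.31), with 1 gastruloid of day 4 at 0 UMIs, and -1.11 without lane B, passing under none of 6 alternatives.

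In Early Spinal Cord (10 and 5 gastruloids) 0 of 5 members passed edgeR's test, beside 3.08% of 6827 genes. Of the members, 1 had an unadjusted p under 0.05 (Gdf11, 0.33 on the log2 scale, 95% interval 0.06 to 0.59), and DESeq2 also called 0. Nr6a1 had medians of 246 CPM (77.5 to 296) and 148 (137 to 231), a log2 fold change of -0.30 with an interval of -0.71 to 0.11. The direction of Lin28b, 0.03 (interval -0.14 to 0.21), turned without lane A (-0.06) or lane D (-0.03). Whether the step differed between Early Spinal Cord and Early Posterior PSM was tested over gastruloids that held both (9 and 5). In that test 0 of 5 members passed beside 1.76% of 8700 genes, with 1 at an unadjusted p under 0.05 (Prtg, -0.66, 95% interval -1.24 to -0.08). DESeq2 was not run on it.

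**Figure D3:**
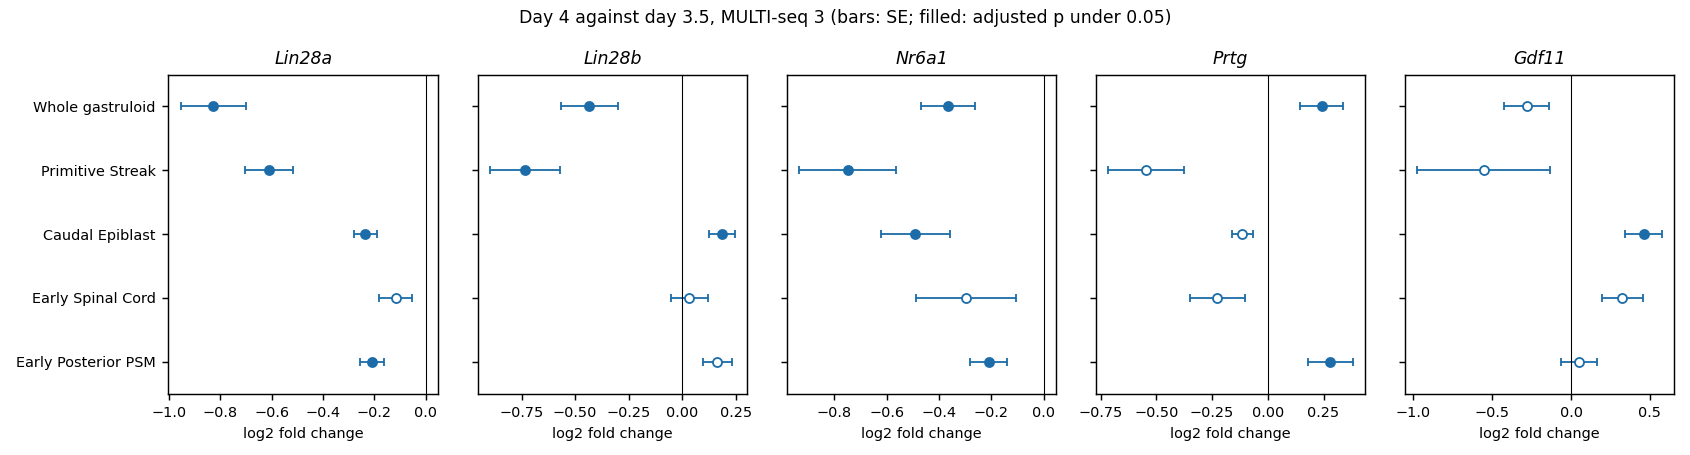
Log2 fold change of day 4 over day 3.5 in MULTI-seq 3 (x axis; bars are 1 SE; filled points have an edgeR adjusted p under 0.05) for each member in whole gastruloids and within 4 cluster names. Lin28a is below 0 in every row, and Gdf11 lies at -0.28 in whole gastruloids and at 0.46 within Caudal Epiblast.

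The second tested step was day 5 against day 4.5 in MULTI-seq 3 (16 gastruloids each). Lin28a, Nr6a1 and Prtg were lower on day 5 in whole gastruloids, so 3 of 5 members passed and all 3 fell, beside 13.3% of 12298 genes, 6.27% higher and 6.98% lower. With the neural share as a covariate the count behind that background went from 1630 to 2924 genes. Lin28a fell from a median of 126 CPM (85.4 to 156) to 96.6 (75.6 to 129), a log2 fold change of -0.36 (SE 0.09; edgeR adjusted p = 0.00479), with 15 of 16 later gastruloids below the earlier median. Nr6a1 fell from a median of 61.8 CPM (50.2 to 96.3) to 47.3 (38.2 to 62.1), -0.46 on the log2 scale (SE 0.09; edgeR adjusted p = 0.000657), also in 15 of 16. Prtg fell from a median of 270 CPM (237 to 372) to 210 (161 to 291), -0.39 on the log2 scale (SE 0.07; edgeR adjusted p = 0.000372), in 14 of 16. These 3 calls held under all 8 alternatives. Lin28b missed the threshold at -0.28 (95% interval -0.49 to -0.08; edgeR adjusted p = 0.0524) and passed it with DESeq2 and with the neural share as a covariate (-0.21), among alternatives with adjusted p from 4.2e-05 to 0.139. Gdf11 had 0.10 (95% interval -0.05 to 0.25; edgeR adjusted p = 0.405). Neural names made up 41.6% ± 34.7 of cells on day 4.5 and 33.9% ± 26.0 on day 5.

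Early Spinal Cord (15 and 16 gastruloids) had the lowest log2 fold changes of Nr6a1 and Prtg among the 8 names tested at this step, a ranking tested below against 1 other name. Here 4 of 5 members passed, beside 12.3% of 9061 genes. Prtg ran from 153 to 272 CPM (median 202) on day 4.5 and from 85.5 to 148 (median 120) on day 5. These ranges did not overlap, but the share of all genes without overlap is not given. The log2 fold change was -0.81 (SE 0.08; edgeR adjusted p = 2.09e-08). Nr6a1 fell from a median of 61.8 CPM (33.7 to 88.4) to 36.5 (24.1 to 52.0), -0.87 on the log2 scale (SE 0.11; edgeR adjusted p = 1.57e-06), with all 16 later gastruloids below the earlier median. Lin28b fell from 54.7 CPM (43.4 to 71.2) to 45.1 (35.4 to 58.7), -0.34 on the log2 scale (SE 0.07; edgeR adjusted p = 0.000208). Lin28a had medians of 201 (162 to 235) and 191 CPM (153 to 270) and a log2 fold change of -0.06 (95% interval -0.19 to 0.07; edgeR adjusted p = 0.646; -0.09 with a minimum of 30 cells). Gdf11 went the other way, from a median of 25.6 CPM (15.5 to 36.5) to 32.7 (24.3 to 50.3), 0.31 on the log2 scale (SE 0.10; edgeR adjusted p = 0.0322), in 14 of 16. The Gdf11 call was lost without lane B (0.28), without lane C (0.31) and with a minimum of 30 cells (0.29), among 7 alternatives with adjusted p from 0.014 to 0.133.

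NMPs, the caudal progenitors that feed both spinal cord and presomitic mesoderm (13 and 16 gastruloids), had 4 of 5 members past the test beside 7.31% of 7378 genes. Lin28b fell from a median of 69.4 CPM (54.2 to 79.5) to 47.0 (35.1 to 62.6), -0.58 on the log2 scale (SE 0.07; edgeR adjusted p = 3.85e-08), with all 16 later gastruloids below the earlier median. Prtg fell from 189 CPM (133 to 211) to 130 (106 to 194), -0.52 on the log2 scale (SE 0.06; edgeR adjusted p = 1.15e-07). Nr6a1 fell from 50.2 CPM (26.4 to 63.1) to 38.7 (29.97 to 48.6), -0.45 on the log2 scale (SE 0.09; edgeR adjusted p = 0.000251). Gdf11 rose from 35.5 CPM (27.0 to 55.7) to 48.1 (33.9 to 65.6), 0.37 on the log2 scale (SE 0.10; edgeR adjusted p = 0.00928), in 15 of 16 gastruloids. In NMPs as in Early Spinal Cord, Gdf11 thus rose while Lin28b, Nr6a1 and Prtg fell. Lin28a, at -0.14 (95% interval -0.25 to -0.04; edgeR adjusted p = 0.0779), did not pass, and stood at -0.09 with library size alone or with a minimum of 30 cells. Without lane A the calls of Nr6a1 (-0.33) and Gdf11 (0.34) were lost, and that of Gdf11 also with a minimum of 30 cells (0.41). The adjusted p over 7 alternatives spanned 6.77e-05 to 0.149 for Nr6a1 and 0.00321 to 0.177 for Gdf11.

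In Late Spinal Cord, neural tube progenitors with higher Pax6 and Nkx6-1 than all cells (7 and 8 gastruloids), 3 of 5 members passed beside 7.89% of 9921 genes. Nr6a1 ran from 72.8 to 102 CPM (median 86.8) on day 4.5 and from 47.4 to 71.8 (median 68.3) on day 5. These ranges had no overlap, but the share of all genes without overlap is not given. The log2 fold change of Nr6a1 was -0.41 (SE 0.08; edgeR adjusted p = 0.00237). Lin28a fell from a median of 119 CPM (93.2 to 128) to 88.1 (76.0 to 116), -0.33 on the log2 scale (SE 0.08; edgeR adjusted p = 0.0188). Lin28b fell from 67.9 CPM (58.8 to 83.4) to 55.3 (45.5 to 62.1), -0.28 on the log2 scale (SE 0.07; edgeR adjusted p = 0.0104). All 8 later gastruloids were below the earlier median for these 3 genes. Prtg had medians of 380 CPM (355 to 449) and 303 (168 to 363), a log2 fold change of -0.40 (95% interval -0.70 to -0.10; edgeR adjusted p = 0.106), and passed with DESeq2 alone among 7 alternatives (0.0366 to 0.189). Without lane A the call of Lin28a was lost (-0.27), its adjusted p spanning 0.00336 to 0.0588 over the alternatives, and that of Lin28b lay just under the threshold (0.05 when rounded, -0.28). Gdf11 had 0.05 (95% interval -0.16 to 0.26), and -0.03 without lane A.

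In the presomitic names the same direction held for most members. Late Posterior PSM (12 and 16 gastruloids) had 4 of 5 members past the test, all lower, beside 6.7% of 7818 genes. Lin28a fell by 0.28 on the log2 scale there (median 121 to 105 CPM; SE 0.06; edgeR adjusted p = 0.00105), Nr6a1 by 0.41 (53.9 to 47.3 CPM; SE 0.08; edgeR adjusted p = 0.000203) and Prtg by 0.44 (323 to 229 CPM; SE 0.07; edgeR adjusted p = 4.31e-05). All 16 later gastruloids were below the earlier median for these 3 genes. The call of Lin28b (-0.29; edgeR adjusted p = 0.0359) was lost in each of 7 alternatives, where its value lay between -0.35 without lane A and -0.22 without lane C and its adjusted p between 0.0561 and 0.341. In Late Anterior PSM (9 and 15 gastruloids) 2 of the 4 members tested passed, beside 2.73% of 6703 genes. Prtg fell there from a median of 278 CPM (247 to 339) to 197 (142 to 251), -0.55 on the log2 scale (SE 0.07; edgeR adjusted p = 1.65e-08), in all 15 later gastruloids. Lin28a fell from 47.7 CPM (34.6 to 59.6) to 36.2 (27.1 to 70.8), -0.42 on the log2 scale (SE 0.12; edgeR adjusted p = 0.0436), a call lost without lane B (-0.39) or lane C (-0.41) and kept without lane A (-0.67) among 6 alternatives (adjusted p from 0.00257 to 0.25). Nr6a1 had -0.32 there (95% interval -0.54 to -0.09; unadjusted p = 0.00631 and adjusted p = 0.128 with edgeR; -0.20 without lane B) and Lin28b -0.36 (-0.76 to 0.03). Gdf11 did not pass the filter on low counts in Late Anterior PSM or in Somites.

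In Somites (10 and 12 gastruloids) 1 of 4 members tested passed, beside 3.48% of 6146 genes. Prtg fell from a median of 227 CPM (187 to 244) to 148 (128 to 213), -0.54 on the log2 scale (SE 0.08; edgeR adjusted p = 1.95e-06), in all 12 later gastruloids. It did not pass without lane C, where the value was -0.64 and the adjusted p 0.119, the highest of 6 alternatives (lowest 8.74e-10). Lin28a had -0.48 in Somites (95% interval -0.84 to -0.11; unadjusted p = 0.0115 and adjusted p = 0.157 with edgeR), Lin28b -0.10 (-0.46 to 0.26) and Nr6a1 0.15 (-0.07 to 0.37; edgeR adjusted p = 0.57). None of these 3 passed under any of 6 alternatives, and the values of 2 of them moved when 1 lane was left out. Lin28b stood at -0.02 without lane A and -0.36 without lane C, and Nr6a1 at 0.01 without lane C. In Mature Somites, blocks with higher Meox1 and Uncx than all cells (13 and 16 gastruloids), 3 of 5 members passed and fell, beside 13.9% of 10019 genes. Lin28a fell from a median of 48.4 CPM (32.5 to 68.2) to 34.1 (27.4 to 46.6), -0.43 on the log2 scale (SE 0.09; edgeR adjusted p = 0.000943), in all 16 later gastruloids. Nr6a1 fell by 0.34 on the log2 scale (60.7 to 49.3 CPM; SE 0.07; edgeR adjusted p = 0.000729) and Prtg by 0.30 (330 to 251 CPM; SE 0.06; edgeR adjusted p = 0.000409). Lin28b had 0.11 (95% interval -0.01 to 0.23; edgeR adjusted p = 0.229; 0.05 without lane C), with medians of 33.3 and 36.5 CPM. In Mature Endoderm (7 and 9 gastruloids) edgeR called 0 of 5 members beside 1.06% of 8363 genes, with 2 at an unadjusted p under 0.05 (Lin28a, -0.22, and Prtg, -0.19), and DESeq2 called 0. Gdf11 had 0.40 in Mature Endoderm (95% interval -0.07 to 0.87; edgeR adjusted p = 0.491). It had 0.05 in Mature Somites (-0.17 to 0.26) and 0.10 in Late Posterior PSM (-0.13 to 0.33), and passed in none of these names.

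**Figure D4:**
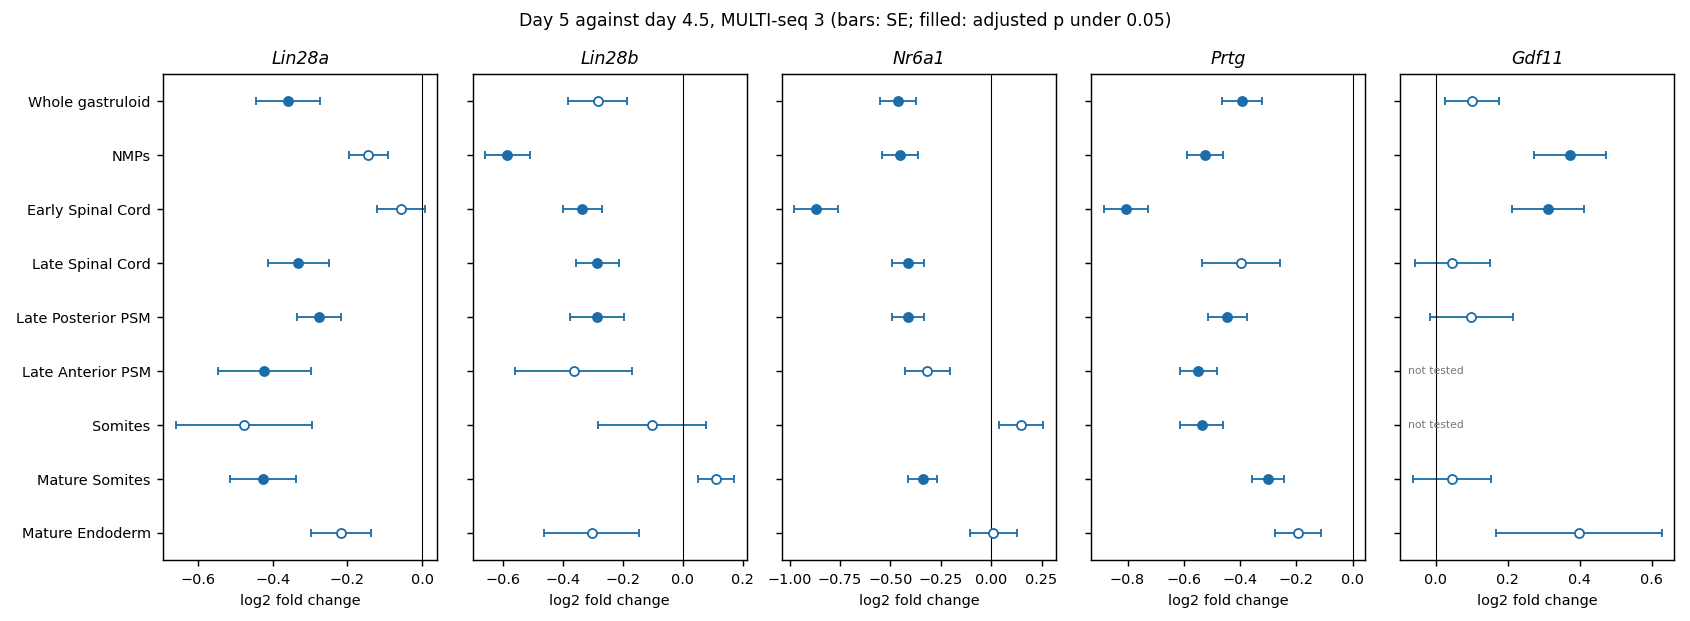
Log2 fold change of day 5 over day 4.5 in MULTI-seq 3 (x axis, scaled per panel; bars are 1 SE; filled points have an edgeR adjusted p under 0.05) for each member in whole gastruloids and within 8 cluster names. Prtg is below 0 in every row and lowest in Early Spinal Cord (-0.81), and Gdf11 is filled, above 0, in NMPs (0.37) and Early Spinal Cord (0.31).

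Whether the day 5 step differed between a neural and a mesodermal name was tested for Early Spinal Cord and Mature Somites, over gastruloids that held both (12 and 16). In all, 3 of 5 members passed this test of the difference, beside 4.09% of 10468 genes. Prtg fell further in Early Spinal Cord than in Mature Somites by 0.45 on the log2 scale (SE 0.08; edgeR adjusted p = 0.000304), Nr6a1 by 0.44 (SE 0.11; edgeR adjusted p = 0.0104) and Lin28b by 0.43 (SE 0.10; edgeR adjusted p = 0.00564). Lin28a had the opposite sign, 0.36 (95% interval 0.12 to 0.59; edgeR adjusted p = 0.0789). For Gdf11 the difference was 0.21 (95% interval -0.10 to 0.52; edgeR adjusted p = 0.544; 0.14 with a minimum of 30 cells). The 3 calls held under both alternatives run. Other pairs of names were not tested at this step. Among the mesodermal names Prtg fell least in Mature Somites (-0.30). It had -0.445 in Late Posterior PSM, -0.54 in Somites and -0.55 in Late Anterior PSM, and -0.40 in Late Spinal Cord, a neural name. The difference thus holds for Early Spinal Cord and Mature Somites and does not stand for neural against mesodermal names.

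**Figure D5:**
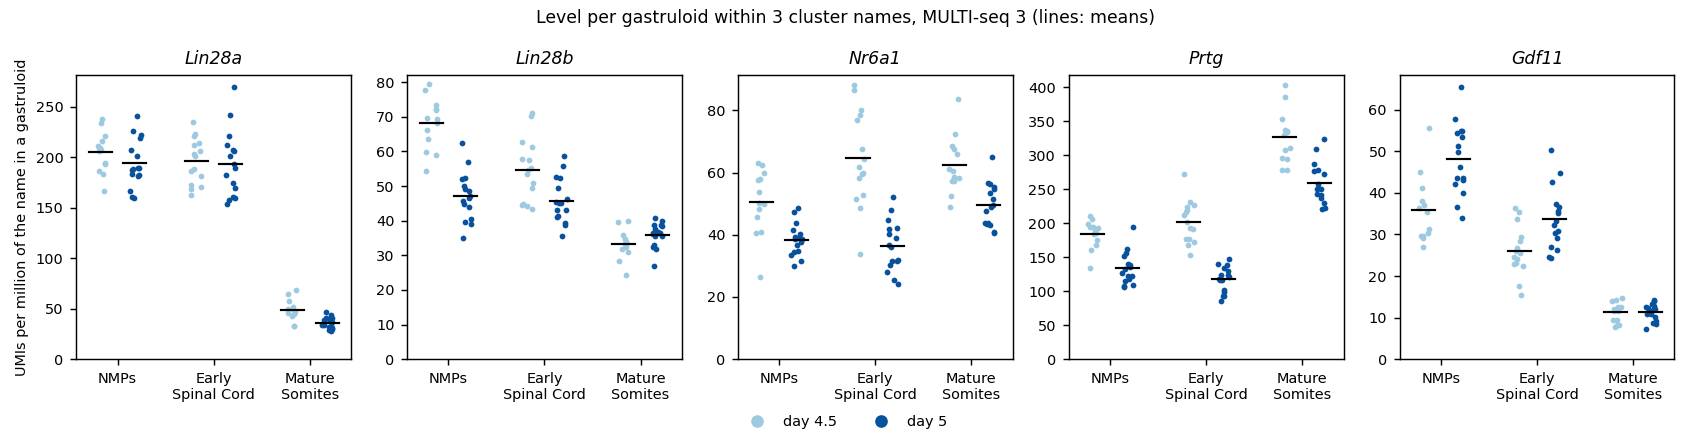
Each point is 1 gastruloid with at least 10 cells of the name (x axis) on day 4.5 (light) or day 5 (dark) of MULTI-seq 3, plotted by CPM (y axis, linear from 0), with black lines for the means. In Early Spinal Cord the Prtg points of day 5 (85.5 to 148) all lie below those of day 4.5 (153 to 272), while those of Lin28a (153 to 270 and 162 to 235) overlap. The share of all genes without overlap is not given.

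The third tested step, day 4.5 against day 4 in pool B of MULTI-seq 2 (11 and 12 gastruloids), is the one step from an experiment apart from MULTI-seq 3. In whole gastruloids edgeR called 0 of 5 members, beside 7.19% of 11064 genes, 2.97% higher and 4.22% lower. That background moved with single lanes and with the neural share, since the 796 genes called became 502 without lane 2, 322 without lane 3 and 1566 with the neural share as a covariate. Prtg and Gdf11 had an unadjusted p under 0.05, and DESeq2 called 0 as well. Prtg had medians of 333 CPM (276 to 414) and 303 (278 to 333), a log2 fold change of -0.17 (95% interval -0.30 to -0.05; edgeR adjusted p = 0.0939), and all 12 later gastruloids were below the earlier median. It passed without lane 2 (-0.22) among 7 alternatives with adjusted p from 0.013 to 0.308. Gdf11 had medians of 13.5 CPM (6.97 to 24.6) and 18.3 (12.5 to 21.9) and a log2 fold change of 0.39 (95% interval 0.02 to 0.77; edgeR adjusted p = 0.204), and passed with a minimum of 100 cells per gastruloid (0.71), among alternatives from 0.0164 to 0.284. Nr6a1, at -0.04 (95% interval -0.38 to 0.29), turned to 0.01 without lane 3 and to 0.14 with 100 cells, and stood at -0.23 with the neural share as a covariate, passing under none of 7 alternatives (adjusted p from 0.078 to 0.995). Lin28a had -0.22 (95% interval -0.56 to 0.12; edgeR adjusted p = 0.471) and Lin28b 0.27 (95% interval -0.07 to 0.61; edgeR adjusted p = 0.351). Neither passed under any of 7 alternatives, where Lin28a ran from -0.34 to 0.06, above 0 only with a minimum of 100 cells per gastruloid (adjusted p from 0.0889 to 0.881), and Lin28b from 0.08 to 0.50 (0.0774 to 0.572). Neural names made up 23.0% ± 33.6 of cells on day 4 and 43.5% ± 36.3 on day 4.5. Late Posterior PSM (6 and 8 gastruloids) was the single name with enough gastruloids, and edgeR called 0 of 5 members there beside 0.972% of 6275 genes, with 2 at an unadjusted p under 0.05. DESeq2 also called 0 there but gave Gdf11 no adjusted p. Nr6a1 had medians of 71.6 and 55.5 CPM there and a log2 fold change of -0.41 (95% interval -0.70 to -0.13; edgeR adjusted p = 0.191). Lin28a had -0.21 there (95% interval -0.42 to -0.01), Lin28b -0.25 (-0.54 to 0.04) and Prtg -0.0039 (-0.13 to 0.12). Gdf11 had 0.42 (95% interval -0.01 to 0.85; edgeR adjusted p = 0.45), with all 8 later gastruloids above the earlier median.

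Shares of cells with a UMI were compared in cells thinned to 5000 UMIs each. On day 5 of MULTI-seq 3, Lin28a UMIs were found in 60.5% of 850 NMPs (exact 95% interval 57.1 to 63.8), 53.8% of 1870 Early Spinal Cord cells (51.5 to 56.1) and 11.2% of 322 Somites cells (7.95 to 15.1). Without thinning the shares were 97.1%, 95.3% and 42.5%, at median depths of 28200, 31400 and 27400 UMIs. No name is known to lack the gene, and the lowest share was that of Endothelium, 8.2% of 122 cells (4.0 to 14.6). Gdf11 UMIs were found in 13.8% of 362 NMPs on day 4.5 (10.4 to 17.8) and 20% of 850 on day 5 (17.4 to 22.8), beside 1.64% in Endothelium on day 5. Intervals cover counting error only, and cells of 1 gastruloid are not independent.

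Genes with the pattern most like each member were sought over 46 groups of name and day in MULTI-seq 3, by Pearson's r of mean log2(CPM + 1) among 7580 genes. The groups share gastruloids, lanes and depth, and they come from 3 pools. A shift between pools enters r together with day and name, so r is a description and does not show shared regulation. Ptk7 (r = 0.884), Cndp2 and Tcea3 were nearest to Lin28a, and Psd3 (0.869), Dna2 and Rpap3 to Lin28b. Alms1 (0.906), Cops2 and Hcfc1 were nearest to Nr6a1, Cbx2 (0.812) and Nono to Prtg, and Chic1 (0.864), Tmem107 and Hoxaas3 to Gdf11. Among the members, r was 0.713 for Nr6a1 and Prtg, 0.675 for Lin28b and Gdf11, 0.661 for Lin28a and Lin28b, and 0.0698 for Lin28a and Prtg.

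Other genes of these pathways are described by counts, beside the share of all genes called at the same step. At the day 4 step of MULTI-seq 3, edgeR called 60.3% of all genes in whole gastruloids, 31.1% higher and 29.2% lower, so that counts near those shares say nothing of a list. Neural names made up a mean of 37.3% of cells before and 10.2% after that step, and their part in the whole-gastruloid counts of these lists was not tested, so counts within cluster names are given as well. Within names edgeR called 21% of genes in Caudal Epiblast, 38.2% in Early Posterior PSM, 3.08% in Early Spinal Cord and 5.19% in Primitive Streak at that step. In Caudal Epiblast 944 genes rose and 888 fell, and in Early Posterior PSM 1892 and 1781. In Early Spinal Cord 101 rose and 109 fell, and in Primitive Streak 201 and 228. Percentages given below for single names, or for differences between names, count both directions. A count of rises or falls alone is to be read against a smaller share. Of 9 let-7 processing genes, 3 rose and 3 fell in whole gastruloids at the day 4 step, with a median of 0.01 on the log2 scale beside 0.01 over all genes. Tut7 (0.26, SE 0.05) and Tut4 (0.21, SE 0.03), the uridylyl transferases that LIN28 recruits to let-7 precursors, were among the risers, and Xpo5, which exports the precursors, fell by 0.15 (SE 0.05). At the day 5 step, where edgeR called 13.3% of all genes, 0 of 9 passed, with a median of -0.03. Of these 9, 4 had an unadjusted p under 0.05, and DESeq2 also called 0. In MULTI-seq 2, where edgeR called 7.19% of all genes, 0 of 9 rose and 1 fell (Ago2, -0.17, SE 0.05). Within names at the day 4 step, 1 of 9 rose and 0 fell in Caudal Epiblast, 2 rose and 1 fell in Early Posterior PSM, and edgeR and DESeq2 called 0 in Early Spinal Cord and Primitive Streak, with 0 and 1 at an unadjusted p under 0.05.

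Of 13 known let-7 targets, 6 rose and 6 fell at the day 4 step, beside the 31.1% and 29.2% of all genes, with a median of -0.04. Hmga2, a chromatin protein, rose by 1.70 (SE 0.22), Igf2bp2 by 0.60 (SE 0.07) and Mycn by 0.41 (SE 0.08), while Ccnd2 fell by 0.73 (SE 0.13). At the day 5 step 1 of 13 rose and 4 fell, beside 6.27% and 6.98% of all genes. The 4 that fell were Igf2bp1 (-0.25), Arid3b (-0.19), Trim71 (-0.16) and Cdc25a (-0.13). In MULTI-seq 2, 2 of 13 rose (Igf2bp2, 0.25, and Igf2bp3, 0.19) and 0 fell, beside 2.97% and 4.22% of all genes. Within names at the day 4 step, 5 of 13 rose and 2 fell in Caudal Epiblast, beside 21% of all genes, and 3 rose and 4 fell in Early Posterior PSM, beside 38.2%. In Primitive Streak 2 rose and 2 fell, beside 5.19%, and DESeq2 called 3 of 13. Early Spinal Cord had 1 rising and 0 falling, beside 3.08%, and DESeq2 called 0 there. Between 0 and 3 of 13 rose and between 0 and 3 fell at the day 5 step in each of the 8 names tested, where edgeR called from 1.06% (Mature Endoderm) to 13.9% (Mature Somites) of all genes.

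Of the transcripts listed as let-7 hosts, 2 were measured. Mir99ahg, which holds a let-7c gene, reached 0.816 CPM in the pooled cells of day 5. Mir100hg reached 1.28 CPM there. None of the 11 matched let-7 and miR-98 genes was found inside it. The match need not hold every let-7 gene, since let-7a was matched at Mirlet7a-1 alone. It thus does not show that Mir100hg lacks one. Mir100hg alone was tested, at the day 5 step, with a log2 fold change of 0.70 (SE 0.38; edgeR adjusted p = 0.234). DESeq2 called it. Most other transcripts that hold let-7 genes were not analysed here.

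Of the transcripts that NR6A1 is known to repress, 3 of 7 were tested in whole gastruloids at the day 4 step, and 0 rose and 2 fell beside the 60.3% of all genes called. Pou5f1 (Oct4) fell by 2.62 on the log2 scale (SE 0.24) and Nanog by 1.32 (SE 0.25), and Tdgf1 had -0.54 (SE 0.61). Within cluster names the values had both signs. Within Primitive Streak 1 of 3 tested rose and 0 fell, beside 5.19% of all genes, with Nanog at 1.27 (SE 0.30) and, not passing, Tdgf1 at 1.92 and Pou5f1 at 0.09. Within Early Posterior PSM 2 of 2 tested fell, beside 38.2% of all genes (Pou5f1, -1.67, SE 0.18, and Tdgf1, -1.42, SE 0.33). Within Caudal Epiblast the 1 tested fell, beside 21% (Pou5f1, -1.19, SE 0.12), and within Early Spinal Cord the 1 tested did not pass, beside 3.08% (Pou5f1, -0.06, SE 0.22). The difference between Early Spinal Cord and Early Posterior PSM passed for 1 of 2, beside 1.76% (Pou5f1, 1.25, SE 0.18). Pou5f1, the 1 tested in each later step of whole gastruloids, had -0.41 (SE 0.29; edgeR adjusted p = 0.367) at the day 5 step and fell by 1.92 (SE 0.26) in MULTI-seq 2.

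Of 8 relatives and ligands of PRTG, 1 rose and 5 fell at the day 4 step, beside 31.1% and 29.2% of all genes, with a median of -0.34. The largest changes were those of Dcc (-1.90, SE 0.45), Igdcc4 (-0.92, SE 0.11), Igdcc3 (-0.50, SE 0.15) and Neo1 (0.47, SE 0.07). At the day 5 step 2 of 8 rose (Rgmb, 0.64, and Ntn1, 0.29) and 0 fell, beside 6.27% and 6.98% of all genes. In MULTI-seq 2, 1 rose (Neo1, 0.40) and 1 fell (Dnajb11, -0.18), beside 2.97% and 4.22%. Within Caudal Epiblast at the day 4 step 1 of 7 rose (Neo1, 0.28) and 1 fell (Dnajb11, -0.21), with a median of 0.02, beside 21% of all genes. Within Early Posterior PSM 2 of 7 rose (Rgma, 0.44, and Neo1, 0.30) and 2 fell (Igdcc4, -1.21, and Dnajb11, -0.31), with a median of -0.00087, beside 38.2%. Within Early Spinal Cord and Primitive Streak edgeR and DESeq2 called 0 of 4 and 0 of 7, with 1 and 2 at an unadjusted p under 0.05 and medians of 0.06 and -0.32. Igdcc3, a close relative of Prtg, rose at the day 5 step within Early Spinal Cord (0.25), NMPs (0.31) and Mature Somites (0.20), beside 12.3%, 7.31% and 13.9% of all genes. Rgma fell within Early Spinal Cord (-0.53), Ntn1 rose within Late Anterior PSM (0.66, beside 2.73%) and Late Posterior PSM (0.62, beside 6.7%), and Rgmb rose within Mature Somites (0.58).

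Around GDF11, 5 of 9 genes for processing and inhibition were tested at the day 4 step, and 3 rose and 1 fell, beside 31.1% and 29.2% of all genes. Pcsk5, a convertase that cleaves the GDF11 precursor, rose by 3.17 on the log2 scale (SE 0.31), Bmp1 by 0.56 (SE 0.08) and Furin by 0.51 (SE 0.10), and Fst, the secreted inhibitor follistatin, fell by 2.03 (SE 0.17). At the day 5 step edgeR and DESeq2 called 0 of 5 in whole gastruloids, beside 13.3% of all genes with edgeR, and 1 had an unadjusted p under 0.05. Within names at that step 1 gene of the list fell in 4 of 8 names and 0 rose in any. It was Fst in Late Anterior PSM (-0.93, SE 0.21, beside 2.73% of all genes), Mature Somites (-1.06, SE 0.16, beside 13.9%) and Somites (-1.72, SE 0.28, beside 3.48%), and Furin in NMPs (-0.57, SE 0.17, beside 7.31%). At the day 4 step Fst also fell within Caudal Epiblast (-0.92), Early Posterior PSM (-1.35) and Primitive Streak (-1.07). At that step Furin rose within Caudal Epiblast (0.59) and Primitive Streak (1.05), and Pcsk5 (1.91) and Bmp1 (0.34) within Early Posterior PSM. In MULTI-seq 2 0 of 4 rose and 1 fell (Fst, -0.98, SE 0.28), beside 2.97% and 4.22%.

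Of 8 receptors and SMADs tested at the day 4 step, 7 rose and 1 fell, beside 31.1% and 29.2% of all genes, with a median of 0.30. The largest changes were those of Smad7 (1.05, SE 0.22), Smad3 (0.49, SE 0.09), Acvr2b (0.38, SE 0.04) and Tgfbr1 (0.32, SE 0.04). The list holds genes of different roles, so its count of rises is no measure of GDF11 signalling, which was not tested. Within names at that step 2 of 8 rose in Caudal Epiblast, beside 944 of 8735 genes that rose, and 5 of 8 in Early Posterior PSM, beside 1892 of 9605. In these names 0 fell, and 21% and 38.2% of all genes were called in either direction. DESeq2 called 1 and 5 of the 8 there. In Early Spinal Cord and Primitive Streak edgeR called 0 of 5 and 0 of 7, with 0 and 2 at an unadjusted p under 0.05 and 0 and 1 called by DESeq2. At the day 5 step 2 of 8 rose, beside 6.27% of all genes (Acvr1b, 0.36, SE 0.10, and Tgfbr1, 0.10, SE 0.03), and in MULTI-seq 2 2 of 8 rose, beside 2.97% (Acvr2a, 0.35, and Tgfbr1, 0.25), while DESeq2 called 1 of 8 at each of these steps. Within names at the day 5 step 2 of 8 rose in Early Spinal Cord, 1 of 8 in Late Spinal Cord and 1 of 6 in NMPs. Beside these, 544 of 9061, 384 of 9921 and 230 of 7378 genes rose, and 12.3%, 7.89% and 7.31% were called in either direction. Of the list, 0 fell in any of the 8 names. DESeq2 called 0 in Early Spinal Cord, 1 in Late Spinal Cord and 0 in NMPs.

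Trunk Hox genes, paralogues 5 to 9, had 1 of 14 rising and 3 falling in whole gastruloids at the day 4 step, beside 31.1% and 29.2% of all genes, with a median of -0.20. Hoxb9 (-1.08, SE 0.43), Hoxb8 (-1.03, SE 0.32) and Hoxb7 (-1.02, SE 0.29) fell, and Hoxd8 rose by 0.81 (SE 0.33). Within names at the same step 5 of 12 rose and 0 fell in Caudal Epiblast, beside 21% of all genes, with a median of 0.39, and 2 of 5 rose and 0 fell in Early Posterior PSM, beside 38.2%, with a median of 0.57. In Early Spinal Cord 1 of 11 rose and 0 fell, beside 3.08%, with a median of 0.24. In Primitive Streak 0 rose and 2 of 3 fell, beside 5.19%, with a median of -1.95 (Hoxb7, -2.25, SE 0.49, and Hoxb8, -1.95, SE 0.36). The largest rises in Caudal Epiblast were those of Hoxa7 (1.05, SE 0.21), Hoxc6 (0.92, SE 0.16), Hoxc8 (0.85, SE 0.18) and Hoxb6 (0.77, SE 0.11).

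Of the trunk Hox genes, 3 of 15 rose and 0 fell in whole gastruloids at the day 5 step, beside 6.27% and 6.98%, namely Hoxa6 (1.43, SE 0.27), Hoxd9 (0.89, SE 0.30) and Hoxa5 (0.62, SE 0.09). In MULTI-seq 2, 3 of 14 rose and 0 fell, beside 2.97% and 4.22% (Hoxa9, 3.48, SE 0.57; Hoxa7, 2.23, SE 0.45; Hoxc9, 1.93, SE 0.54). Within Mature Somites 12 of 12 tested rose at the day 5 step, with a median of 2.00, beside 628 of 10019 genes that rose (13.9% called in either direction). Genes low on the earlier day of a step could pass the filter on low counts through the later day alone. In pooled cells of MULTI-seq 2, for example, Hoxa9 went from 0.917 CPM on day 4 to 11.1 on day 4.5. Counts of rises of trunk Hox genes, those of MULTI-seq 2 and of the day 4 step included, may thus have been partly fixed in advance. Within NMPs 7 of 14 rose and 4 fell, beside 7.31%, and within Early Spinal Cord 5 of 14 rose and 3 fell, beside 12.3%, with a median of 0.04. Within Late Posterior PSM 7 of 14 rose and 1 fell (6.7%), within Late Anterior PSM 5 of 12 rose (2.73%), within Somites 5 of 10 rose (3.48%), within Late Spinal Cord 1 of 13 rose and 1 fell (7.89%), and within Mature Endoderm the 1 tested did not pass (1.06%). The difference between Early Spinal Cord and Mature Somites passed, below 0, for 10 of 14, beside 215 of 10468 genes below 0 (4.09% called in either direction). The filter there kept a gene that was high enough in 1 name on 1 day, so this count may have been partly fixed in advance as well.

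Posterior Hox genes, paralogues 10 to 13, mark levels from the lumbar region to the tail, those of group 10 the lumbar ones, and Gdf11 is known to act upstream of them. With Isl1 included, 3 of the 13 genes of that list were tested in whole gastruloids at the day 5 step, and 2 rose, beside 6.27% of all genes. Hoxa10 rose by 2.40 on the log2 scale (SE 0.38) and Hoxc10 by 2.75 (SE 0.33), while Isl1 had -0.21 (SE 0.37). Gdf11 itself did not pass in whole gastruloids at that step. Within NMPs 2 of 2 tested rose (Hoxa10, 2.39, and Hoxc10, 2.75), beside 230 of 7378 genes that rose (7.31% called in either direction). Within Early Spinal Cord 2 of 2 rose (2.77 and 3.08), beside 544 of 9061 (12.3% in either direction). In pooled cells of MULTI-seq 3, Hoxa10 went from 1.42 CPM on day 4.5 to 7.63 on day 5, and Hoxc10 from 3.94 to 26.2. A gene near 0 on day 4.5 passes the filter on low counts only if high on day 5. Counts of rises among the genes tested were thus partly fixed in advance. The 1 gene tested within Mature Somites was Isl1, which fell by 0.83 (SE 0.25) with edgeR, beside 13.9%, and was not called by DESeq2. Isl1 did not pass with either tool within Late Posterior PSM (-0.24), beside 6.7%. Within Mature Endoderm (Isl1, 1.43, SE 0.42) and Late Spinal Cord (Hoxc10, 3.61, SE 1.59) the 1 gene tested did not pass edgeR's test, beside 1.06% and 7.89%, but had an unadjusted p under 0.05 and was called by DESeq2. The difference between Early Spinal Cord and Mature Somites passed edgeR's test for 0 of 2, beside 4.09% of all genes, with 0 at an unadjusted p under 0.05. At the day 4 step Isl1, the 1 gene tested in whole gastruloids, rose by 1.54 (SE 0.41), beside 31.1% of all genes, and in MULTI-seq 2 it had -0.55 (SE 0.48).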

How the data were processed

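The matrices the authors deposited give UMI counts for each cell and gene, made with Cell Ranger 6.0.0 on mm10 per the submitters' processing notes, and the sources used here do not name the gene annotation. Cells, day, gastruloid call and cluster name came from the authors' deposited cell table (77674 cells in the matrices, 53730 with a single gastruloid call). Cells without a single call were left out of gastruloid sums, no doublet caller was run, and pairs of lanes shared at most 15 cell barcodes, up to 0.41% of the smaller lane. Counts were summed per gastruloid over the lanes of its pool (at least 30 cells, 135 of 136 gastruloids), or per gastruloid and name (at least 10 cells, names with at least 5 gastruloids on each day). Tests used edgeR 4.0.16 (filterByExpr, TMM, robust quasi-likelihood) with Benjamini-Hochberg adjustment over all genes of a fit and a threshold of 0.05, and DESeq2 1.42.0 as an alternative. The filter keeps a gene that is high enough on either day, so a gene low on 1 day can enter through the other. The difference between names was an interaction with the gastruloid as a block. Levels are CPM, depth per gastruloid is given with the results, and intervals cover counting error only where exact. Where ranges of a member did not overlap, the share of all genes without overlap is not given. Members and gene lists were chosen with earlier results of these data known. Named list genes were, per list and step, up to 4 called genes with the largest change. Positions, 3′ UTRs and let-7 sequences came from GENCODE M21 and RefSeq (GRCm38). Pool C of MULTI-seq 2 and the 10X lanes had 0% of cells with a single call, and pool C entered no test. Of the genes that the likeness rule names, 1 is not reported here.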

Additional observations from a re-analysis of the deposited data

Results flagged for a closer look

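The difference of the day 5 step between Early Spinal Cord and Mature Somites passed the test for 3 members, beside 4.09% of 10468 genes. With edgeR the log2 differences were -0.427 for Lin28b (adjusted p = 0.00564), -0.443 for Nr6a1 (0.0104) and -0.449 for Prtg (0.000304). Other pairs of names were not tested at this step.

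Single gastruloids stood far from the rest of their group, by Dixon's gap, in 8 of 55 pairs of a member and a group, from 11 groups of 5 to 10 gastruloids with 5 members each. The 8 came from 5 of the 11 groups. Chance flags about 1 in 20 such pairs, and the 5 members of a group share its gastruloids. In Primitive Streak of day 4, where 5 gastruloids had enough cells, the highest value was 166 CPM for Lin28a (next 125), 104 for Nr6a1 (next 55.5) and 225 for Prtg (next 125). In Late Anterior PSM of day 4.5 the highest of 9 was 61.9 CPM for Lin28b (next 32.3) and 339 for Prtg (next 292). In Early Spinal Cord of day 3.5 the lowest of 10 for Nr6a1 was 77.5 CPM (next 218). In Late Spinal Cord the lowest of 7 for Lin28a on day 4.5 was 93.2 CPM (next 114), and the highest of 8 for Gdf11 on day 5 was 20.1 (next 16.6).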

How the results depend on the processing

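No paired analysis was possible because the units compared are gastruloids, each of 1 day and with no replicate number, while the lane numbers of the labels mark technical splits. Of 120 values for members in whole gastruloids under alternatives, 108 kept their direction and their side of the threshold, as did 367 of 413 within names and 15 of 15 differences between names. With the neural share as a covariate the day 4 step of MULTI-seq 3 gave -0.0998 for Lin28b, -0.133 for Nr6a1, 0.105 for Prtg and 0.0945 for Gdf11 in whole gastruloids, the day 5 step gave -0.207 for Lin28b, and the count of genes called went from 1630 to 2924 at the day 5 step and from 796 to 1566 in MULTI-seq 2. With a minimum of 100 cells Prtg stood at 0.205 at the day 4 step, and in MULTI-seq 2 Lin28a at 0.0569, Nr6a1 at 0.142 and Gdf11 at 0.71. DESeq2 gave -0.289 for Lin28b at the day 5 step. Leaving out single lanes of MULTI-seq 2 gave 322 to 502 genes called, -0.224 to -0.147 for Prtg and -0.0472 to 0.0112 for Nr6a1. Within Late Posterior PSM of MULTI-seq 2, Prtg turned to 0.0252 with library size alone, 0.0135 with no filter and 0.209 without lane 2. Without 1 lane, other values spanned both signs: Gdf11 from -0.0244 to 0.134 in Early Posterior PSM, Lin28b from -0.0568 to 0.0855 in Early Spinal Cord of the day 4 step, Gdf11 from -0.0293 to 0.0759 in Late Spinal Cord and from -0.00376 to 0.0914 in Mature Somites, and in Mature Endoderm Nr6a1 from -0.0637 to 0.0918 and Lin28b, -0.304 with all lanes, from -0.447 to 0.0898. The cause was not tested, apart from fewer cells or gastruloids where lanes or cells were left out. Primitive Streak and Early Spinal Cord of day 4 each had 5 gastruloids. The difference between names planned for MULTI-seq 2 was not run, since no pair of names had enough gastruloids there.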
